A study of Mus musculus with 4 samples.

Results

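Open chromatin at 9 genes of the B cell receptor and its signalling chain was read from ATAC-seq peak lists of mouse CD4 T cells without TOX (KO) and with it (WT). The genes were Cd79a, Cd79b, Ms4a1, Cd22, Blk, Blnk, Syk, Btk and Bank1. Peaks of the 4 lists that overlapped by at least 1 bp were merged into regions, and a region belonged to a gene if that gene had the nearest protein-coding RefSeq interval on GRCm38 within 100 kb of the region's midpoint. This gave 89 regions at the 9 genes, of 97394 regions in all. ATAC-seq uses a transposase that inserts sequencing adapters into accessible DNA. A peak is a stretch where a library has more insertions than the peak caller's background.

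The cells were SMARTA CD4 T cells, whose transgenic T cell receptor sees the GP61 peptide, and both genotypes had been transferred as naive cells into cytoxan-treated mice bearing B16-GP61 melanoma. On day 11 they were sorted from lymph nodes that drain the tumor. The 2 KO libraries came from CD4+ Ly5.1+ Ly5.2- cells with low PD1, LAG3 and CD39, and the 2 WT libraries from CD4+ Ly5.1+ Ly5.2+ cells with high levels of these proteins. The effects of TOX, of the gate and of the congenic marker thus cannot be told apart. The part of Tox that was deleted, and whether the 2 libraries of a genotype came from separate animals, are not given in the labels, so the spread between libraries may be technical. With 2 libraries a genotype an exact two-sided permutation test cannot give a p below 0.333, so no difference below could pass a test across libraries. The sources used here give no read numbers, so depth is unknown. The lists held 43078 and 61773 peaks in KO, against 56852 and 61489 in WT. Here and below, a pair of values for one genotype gives replicate 1 and then replicate 2. Peak numbers missing from the 4 lists came to between 2.65% and 3.59% of the highest number, so an absent peak can be one that had been taken out.

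The B cell receptor is a membrane immunoglobulin held together with the signal chains Cd79a and Cd79b. When antigen binds, SRC family kinases such as Blk phosphorylate these chains and Syk docks on them. Syk then phosphorylates the adaptor Blnk, which brings Btk to phospholipase C gamma. Bank1 is an adaptor of the same chain, Cd22 is an inhibitory lectin of the receptor, and Ms4a1 encodes CD20, a B cell surface protein. T cells run a parallel chain from other genes, among them Cd3e, Lck, Zap70 and Lcp2. These 9 genes are therefore B cell genes by textbook use, although Syk also acts in myeloid cells and Btk in both B and myeloid cells.

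The start sites of these genes carried the clearest contrast. RefSeq promoters on GRCm38.p6 were at hand for 6 of the 9 genes, with 7 start sites, since Syk has 2. Of the 7 start sites, 6 lay under a WT-only region, meaning that both WT lists and neither KO list had a peak there. The share among all 32851 annotated start sites was 0.968%, and 35% lay under a region with a peak in every library. The exception among these was Btk, whose start site lay under a low peak of WT-2 alone. For the 3 genes without such a promoter the upper end of the gene was taken instead. Counted so, 7 of the 9 genes had a WT-only region there. At Cd79b the region across the upper end had a KO-2 peak as well. The 250 bases before the start are shown for Cd79a, Blnk and Bank1, where both WT libraries covered all 250 bases and neither KO library covered any, and for Btk, where WT-2 covered 86 bases and the other libraries none. Capitals mark the motif matches described after them.
Cd79a, chr7:24897247-24897496, plus strand: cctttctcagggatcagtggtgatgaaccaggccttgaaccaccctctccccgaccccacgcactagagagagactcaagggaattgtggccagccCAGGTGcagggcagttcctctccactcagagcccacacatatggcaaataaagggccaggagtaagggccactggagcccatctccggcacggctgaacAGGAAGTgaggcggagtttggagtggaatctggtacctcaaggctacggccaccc
Blnk, chr19:40994222-40994471, minus strand: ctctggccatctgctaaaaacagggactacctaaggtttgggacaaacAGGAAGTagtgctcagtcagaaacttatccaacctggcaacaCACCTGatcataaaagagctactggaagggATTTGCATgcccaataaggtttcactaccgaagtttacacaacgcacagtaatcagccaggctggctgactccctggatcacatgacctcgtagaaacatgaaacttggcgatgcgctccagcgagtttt
Bank1, chr3:136326067-136326316, minus strand: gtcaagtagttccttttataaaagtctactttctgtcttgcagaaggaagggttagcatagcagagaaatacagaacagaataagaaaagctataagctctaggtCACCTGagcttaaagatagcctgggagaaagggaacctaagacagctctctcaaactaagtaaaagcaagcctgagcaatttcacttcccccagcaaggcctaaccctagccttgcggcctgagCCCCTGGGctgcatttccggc
Btk, chrX:134583141-134583390, minus strand: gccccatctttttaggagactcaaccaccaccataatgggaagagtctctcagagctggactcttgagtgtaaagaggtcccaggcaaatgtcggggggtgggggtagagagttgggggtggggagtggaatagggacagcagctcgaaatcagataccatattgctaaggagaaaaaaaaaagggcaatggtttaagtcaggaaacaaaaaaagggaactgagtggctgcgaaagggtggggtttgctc

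Among the motifs of lymphoid factors searched, only the E box was in most of the member promoters. The letters searched, on both strands, were the octamer ATGCAAAT, the ETS motif AGGAAGT, the EBF motif CCCNNGGG, the E box CAGGTG and the RUNX motif TGTGGT, all chosen with the promoters already known. No matches overlapped each other. The E box was in 6 of the 7 member promoters, against 17.2% of all promoters in the table. The octamer was in the promoter of Blnk, against 1.60% of all promoters. ETS matches were in Cd79a and Blnk (7.69% of all), and EBF matches in Bank1 and Cd22 (11.8% of all). RUNX matches were in none (14.0% of all), and the Btk promoter held no match of any kind. A match is a description of letters and shows neither a bound factor nor a cause.

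Each of the 9 genes had fewer regions with a peak in either KO library than in either WT library. Of the 89 regions, 9 had a peak in library KO-1 and 16 in KO-2, against 66 in library WT-1 and 77 in WT-2. The groups did not overlap, at 12.5 ± 4.95 regions in KO and 71.5 ± 7.78 in WT libraries (SD, n = 2 each). The difference of -59 regions was far larger than either SD and had the smallest p the design allows (exact permutation p = 0.333). The same order was met in 17.7% of the 16537 genes with a region, and in 25.9% of the 9237 genes with at least as many regions as the members with fewest. Over all 97394 regions the shares with a peak were 40.9% and 60.0% in KO, against 54.4% and 60.2% in WT. KO-2 thus covered nearly as many regions of the genome as WT-2, but 18.0% of the regions at these 9 genes against 86.5% in WT-2. In bulk libraries, fewer cells with an open site and less accessibility per cell cannot be told apart.

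**Figure D1:**
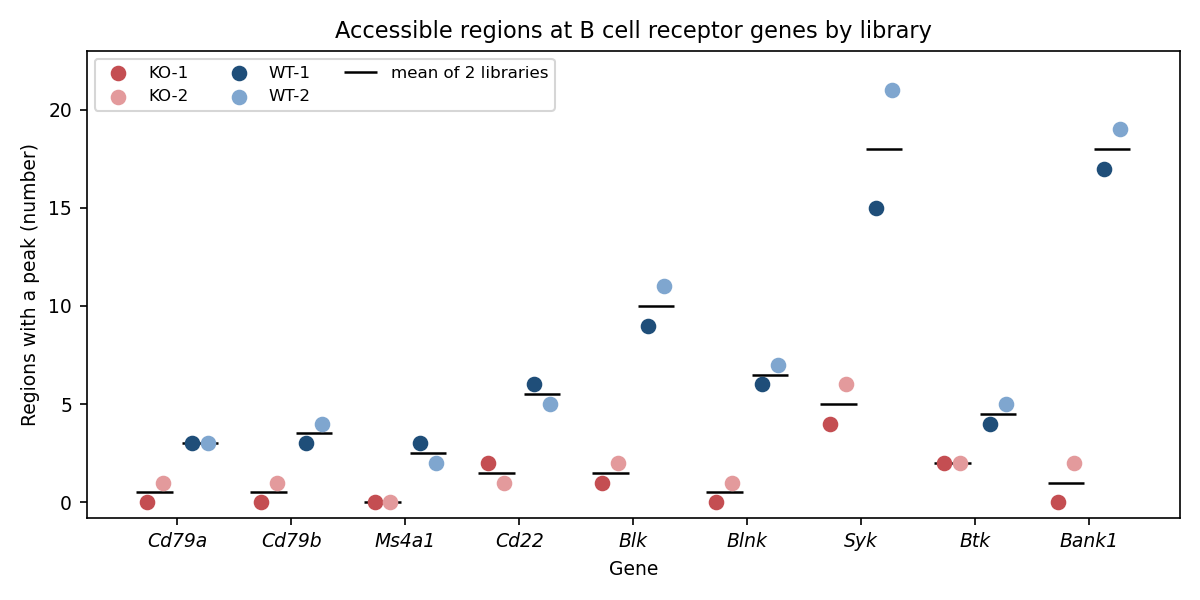
Number of regions with a peak (y axis) at each of the 9 genes (x axis). Points are single libraries, KO left of WT, and black lines the means of 2 libraries. In every gene both KO points sit below both WT points, with 0 to 6 regions in KO and 2 to 21 in WT libraries.

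WT-only regions made up 44 of the 89, or 49.4%, and no region was KO-only. Over all regions 8.8% were WT-only and 1.78% were KO-only, while KO-1 had the shortest list. With each list cut to the length of the shortest they were 9.61% and 3.93%. The WT-only regions were spread over 8 genes, with 14 at Bank1, 10 at Syk, 6 at Blk, 5 at Blnk, 3 at Cd22 and 2 each at Cd79a, Cd79b and Ms4a1. Btk had none. Another 5 regions had a peak in every library, and 9 were shared by both WT libraries and 1 KO library. A further 17 had a peak in WT-2 alone, 8 in WT-1 alone, and 2 each in KO-1 alone, in KO-2 alone and in KO-2 with WT-2. With each list cut to the length of the shortest, 36 of 64 member regions were WT-only and none KO-only, and member regions with a peak averaged 10.5 in KO and 54 in WT libraries. Stricter lists left fewer, with 22 WT-only and no KO-only region of 40 at a −log10 q of at least 10, and 12 WT-only and 1 KO-only of 24 among the 20000 strongest peaks of each list. Over all regions these lists had 13.2% and 8.96% WT-only, with 1.85% and 6.76% KO-only. Where a WT-only region is called the strongest of a gene below, the lower of its WT percentiles was the highest.

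**Figure D2:**
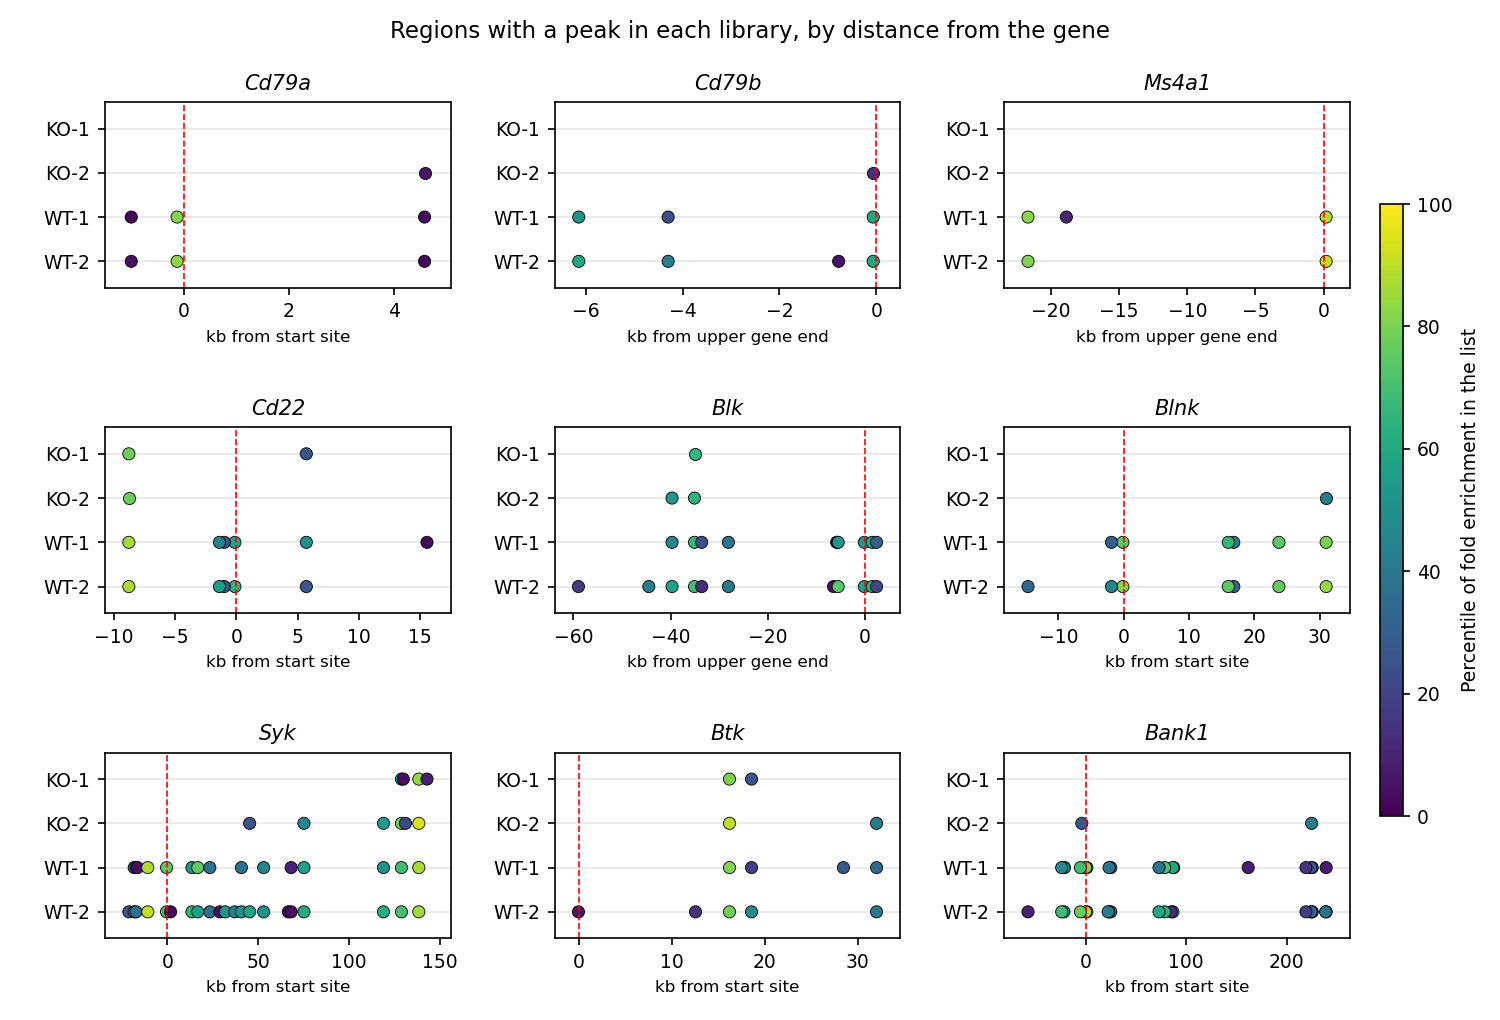
Position of every region with a peak, as the distance in kb of its midpoint from the start site (x axis; from the upper end of the gene interval for Cd79b, Ms4a1 and Blk), in each library (rows, KO above WT). Colour gives the percentile of the deposited fold enrichment within the library's list. The KO rows hold few points, more at Syk than at any other gene, while the WT rows are filled around the dashed line at 0.

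The receptor's own signal chains had few regions, 3 in each WT library at Cd79a and 3 and 4 at Cd79b. Cd79a (chromosome 7, 24897497 to 24901858) had no region with a peak in KO-1 and 1 in KO-2, against 3 in each WT library. The region over its start site, 24896996 to 24897736, was WT-only, with a deposited fold enrichment over background of 8.61 and 8.88 in WT. That placed it at percentiles 81.6 and 83.2, meaning that this percent of the peaks in the same list had a lower fold enrichment. The sole KO peak at Cd79a lay past the other end of the gene, 221 bp outside it, and had a low fold enrichment in the 3 libraries with it, at percentile 5.82 in KO-2, against 2.07 and 2.29 in WT. Percentiles rank peaks within lists of different lengths, so a gap between libraries is a description only. The groups did not overlap at Cd79a, and the same order was met at each of the 9 genes. It was also met in 25.9% of all genes with at least as many regions as the members with fewest.

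Cd79b (chromosome 11, 106311341 to 106314562) had no region in KO-1 and 1 in KO-2, against 3 and 4 in WT. Its KO-2 peak lay in the region across the upper end of the gene, 106314278 to 106314723. It had percentile 13.8 in KO-2, against 59.7 and 59.4 in WT, so the KO-2 peak ranked lower in its list than the WT peaks in theirs. Both WT-only regions of Cd79b lay past the opposite end of the gene. The stronger, 106308114 to 106308715, was 2927 bp outside it and had percentiles of 51.8 and 59.4 in WT.

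The surface proteins Ms4a1 and Cd22 differed in their KO peaks. Ms4a1 (chromosome 19, 11249679 to 11266149) was the sole member without a peak in either KO library, against 3 regions in WT-1 and 2 in WT-2. Its region across the upper gene end, 11265845 to 11266827, had the highest fold enrichment of the WT-only regions over gene starts or upper ends, 10.9 and 12.0 in WT, at percentiles 88.0 and 90.5. The other WT-only region, 11244265 to 11244665, lay 5214 bp beyond the lower end at percentiles 82.3 and 80.8. Both regions overlapped the RefSeq gene 4930526L06Rik as well. Thus these Ms4a1 peaks stood above percentile 80 in both WT lists and were absent from both KO lists.

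Cd22 (chromosome 7, 30865404 to 30880342) had 2 regions with a peak in KO-1 and 1 in KO-2, against 6 and 5 in WT. Its 3 WT-only regions lay side by side within 1.81 kb around the start site, the strongest at 30878774 to 30879512 with percentiles of 58.0 and 65.6 in WT. The region at 30887324 to 30888272, 7456 bp outside the gene, had a peak in every library. Its percentiles were 78.0 and 77.3 in KO, against 86.6 and 87.0 in WT, so both KO peaks ranked lower in their lists than the WT peaks in theirs.

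The kinases Blk and Syk showed the contrast over longer stretches. Blk (chromosome 14, 63372837 to 63417187) had 1 region with a peak in KO-1 and 2 in KO-2, against 9 and 11 in WT. Of its 6 WT-only regions, the one across the upper gene end, 63416699 to 63417479, had percentiles of 54.2 and 57.7 in WT, and the strongest, 63418415 to 63419012, lay 1526 bp outside that end at 61.3 and 64.8. By WT-2 alone the region at 63411550 to 63411856 ranked higher, at percentile 74.0, with 52.0 in WT-1. Inside the gene, 63381917 to 63382321 was open in every library at nearly one rank, with percentiles of 66.0 and 64.8 in KO, against 66.2 and 69.3 in WT. The other KO-2 peak was also inside the gene, at 63377212 to 63377764, with percentile 53.2 in KO-2, against 46.3 and 57.4 in WT. Blk thus had KO peaks at internal sites and none at its upper end.

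Syk (chromosome 13, 52582610 to 52648792), the kinase that reads the phosphorylated chains, had 4 regions with a peak in KO-1 and 6 in KO-2, against 15 and 21 in WT. Its regions fell into sets that behaved differently, split here at 50 kb from the gene after their values were seen. Within 50 kb there were 19 regions, with a peak at none in KO-1 and 2 in KO-2, against 12 and 18 in WT. Beyond 50 kb, all downstream, there were 6 regions, with a peak at 4 in each KO library, against 3 in each WT library. None of those 6 was WT-only. Some of these far KO peaks were low and in a single library. Those at 52713120 to 52713345 and 52726122 to 52726399 were in KO-1 alone, at percentiles 4.18 and 8.49. The one at 52714323 to 52714519 was in KO-2 alone, at percentile 22.1. The low KO count at Syk thus lay at the gene and its flanks. With these low peaks counted, the far downstream sites had no fewer peaks in KO than in WT libraries.

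By the lower of the WT percentiles, the highest of the 44 WT-only regions was the one at the upper end of Ms4a1, and the next was at Syk. The Syk region lay at 52572015 to 52573441, 9882 bp outside the gene on its start side and overlapping the RefSeq gene Gm2848, with a fold enrichment of 10.7 and 12.1 in WT at percentiles 87.4 and 90.8. Both Syk start sites were under WT-only regions. The first, under 52582394 to 52583766, had percentiles of 73.9 and 68.2 in WT, and the second, under 52596741 to 52597340, had 51.3 and 65.6. Far downstream, 52721314 to 52722220, at 72975 bp from the gene, had the strongest KO peak among the 9 genes, at percentile 84.0 and 94.0 in KO, against 87.0 and 86.2 in WT.

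The adaptors Blnk and Bank1 had nearly all of their peaks in the WT libraries. Blnk (chromosome 19, 40928927 to 40994221), the scaffold between Syk and Btk, had no region with a peak in KO-1 and 1 in KO-2, against 6 and 7 in WT. The region over its start site, 40994057 to 40994639, was WT-only with a fold enrichment of 7.05 and 8.31 in WT, at percentiles 75.4 and 81.4. The KO-2 peak lay inside the gene at 40962942 to 40963582, with percentile 41.4 in KO-2, against 79.8 and 83.9 in WT. Blnk had the highest WT-only share of the 9 genes, 71.4% of its 7 regions.

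Bank1 (chromosome 3, 136053363 to 136326141), the longest of the 9 genes, had no region with a peak in KO-1 and 2 in KO-2, against 17 and 19 in WT. Of its 14 WT-only regions, 11 lay inside the gene and 3 outside it, over a span of 264 kb. The strongest was over the start site, 136325671 to 136326459, with a fold enrichment of 8.21 and 10.6 in WT at percentiles 80.1 and 87.6. Another at 136331037 to 136331508 lay 5131 bp outside the start side, at percentiles 69.2 and 76.7. The KO-2 peaks at Bank1 had percentiles of 26.8 and 41.4, and the difference of -17 regions was the widest among the 9 genes.

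Btk (chromosome X, 134542334 to 134583628), the kinase whose loss gives X-linked agammaglobulinemia in humans and the xid defect in mice, stood apart from the other members. It had 2 regions with a peak in each KO library, against 4 and 5 in WT, and none was WT-only. The region at 134566455 to 134567353, inside the gene, ranked high in every library, at percentiles 80.3 and 90.0 in KO, against 81.0 and 78.7 in WT. Its start site had the WT-2 peak at percentile 5.15 and no other. When weak peaks were left out (−log10 q of at least 10) each library had 1 region at Btk, so the lower KO count rested on weak peaks.

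Where a region at the 9 genes had a peak in every library, its rank was not lower in KO throughout. Of these 5 regions, 3 had a lower mean percentile in KO (Cd22, Blk and the nearer Syk region) and 2 a higher one (Btk and the farther Syk region). The KO minus WT difference was -9.12 percentage points at Cd22, the one region where it exceeded the SD of both pairs by a wide margin (0.525 in KO and 0.291 in WT, n = 2 each). At the other 4 it ran from -2.36 to 5.32 points. The median difference was -1.72 over these 5 regions and -1.35 over all 26867 regions with a peak in every library (exact permutation p = 0.333 on the member medians per library). The direction of the member median was not stable, since it was 0.0372 at a −log10 q of at least 10, 2.44 among the 20000 strongest peaks, 1.48 inside the genes or within 1 kb, and 0.128 without KO-1. At the 9 regions shared by both WT libraries and 1 KO library, the KO percentile was below both WT percentiles in 4, a share that was 44.0% over all 6307 such regions.

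**Figure D3:**
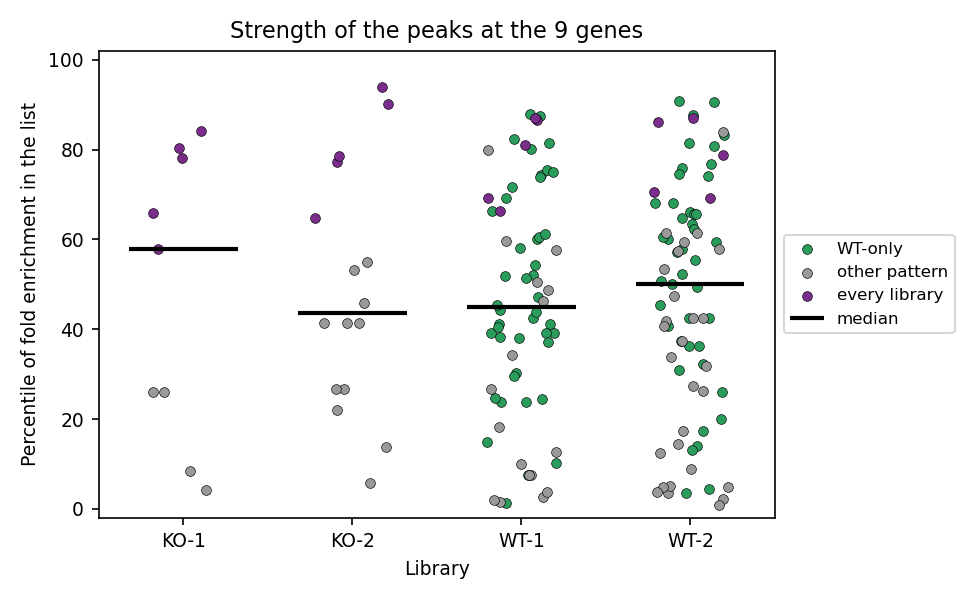
Percentile of the deposited fold enrichment within the list (y axis) for each region with a peak at the 9 genes, by library (x axis, KO left of WT). Points are regions, coloured by their pattern over the 4 libraries, and black lines are medians, at 57.8 in KO-1, 43.7 in KO-2, 44.9 and 50.1 in WT. KO points above 60 are all regions with a peak in every library.

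The WT peaks at these genes spanned nearly the whole range of ranks, from percentile 1.37 to 88.0 in WT-1 and from 0.794 to 90.8 in WT-2. The share of a library's member regions that ranked above the middle of its list was 55.6% (5 of 9) and 43.8% (7 of 16) in KO, against 43.9% (29 of 66) and 50.6% (39 of 77) in WT, so these shares overlapped. Of the 44 WT-only regions, 20 (45.5%) had both WT percentiles over 50, against 30.4% of all 8567 WT-only regions. A deposited −log10 q of at least 10 in both WT lists was met by 19 of the 44, a share not set beside that over all WT-only regions. The lowest value in any list was 2.00. The median width was 478 bp for WT-only member regions and 373 bp for all WT-only regions. Within 1 kb of a gene end lay 11 of the 44 (25%), against 8.66% of all WT-only regions. The WT replicates ranked the 44 regions alike, with a median absolute difference of 7.62 percentile points, against 9.78 over all WT-only regions. Across the 44 regions Spearman's rho between WT-1 and WT-2 percentiles was 0.878, a description over regions of libraries that share a gate and genotype.

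Other genes of the same signalling chain went the same way, though less evenly. Of 31 further genes of B cell receptor signalling, 20 had fewer regions with a peak in both KO than in both WT libraries and 1 had more (background 17.7% and 4.28%). Their 468 regions had a peak at 183 and 248 in KO, against 327 and 347 in WT. Of these regions 101 (21.6%) were WT-only and 9 KO-only, against 8.8% and 1.78% over all regions. Plcg2, the phospholipase that Btk activates, had 1 and 3 regions in KO, against 13 and 16 in WT libraries. Lyn, the main SRC family kinase of B cells, had 2 and 3, against 14 and 18. Rasgrp3, an activator of RAS, had 0 and 1, against 8 and 10.

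At genes that do the parallel work in T cells the counts of the genotypes overlapped. Of 15 T cell receptor genes, 1 had fewer regions with a peak in both KO libraries than in both WT libraries and 2 had more (background 17.7% and 4.28%). Their 205 regions had a peak at 109 and 152 in KO, against 129 and 142 in WT. WT-only and KO-only regions numbered 12 each (5.85%), against 8.8% WT-only and 1.78% KO-only over all regions. The next values are of functional counterparts of the members, named outside the rule with their values known. Zap70, the T cell relative of Syk, had 3 and 4 of its 6 regions in KO, against 4 and 6 in WT libraries, whereas Lck, the SRC family kinase of the T cell receptor, had 6 and 6 of 7 in KO, against 5 and 6 in WT. Lcp2, the adaptor that matches Blnk, had 13 and 17 of 23, against 12 and 16. Among the 4 genes that the rule names, Lat had 6 and 7 regions in KO, against 3 and 3 in WT, Sla 8 and 12, against 13 and 15, Cd247 14 and 18, against 18 and 15, and Cd3d 2 and 2, against 1 and 1.

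**Figure D4:**
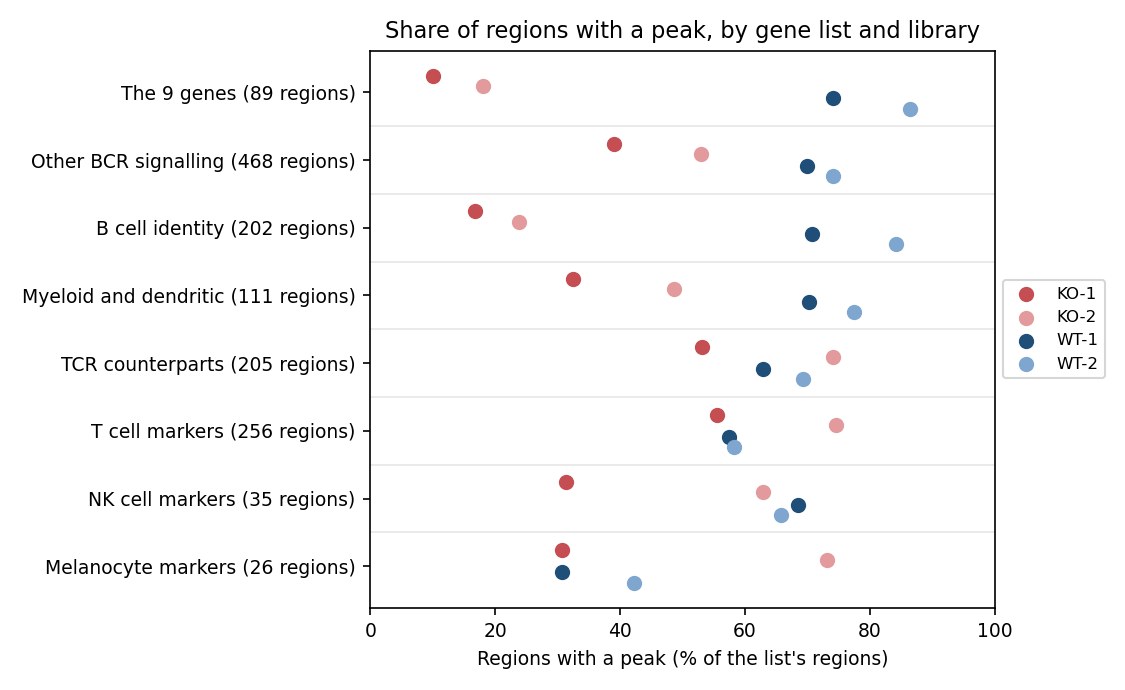
Share of each list's regions that had a peak in a library (x axis, percent), for the 9 genes and 7 lists of other genes (rows). Points are single libraries, KO above WT. The KO points sit at 10.1% and 18.0% for the 9 genes, against 74.2% and 86.5% in WT, while KO and WT points interleave for T cell receptor counterparts and lie with KO-2 highest for T cell markers.

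Most markers of B cells and of myeloid and dendritic cells moved with the result. Of 19 further B cell identity genes, 16 had fewer regions with a peak in both KO than in both WT libraries. None had more. The shares over all 16537 genes with a region were 17.7% with fewer and 4.28% with more. Summed counts were 34 and 48 regions in KO, against 143 and 170 in WT libraries, out of 202. WT-only regions numbered 80 (39.6%) and KO-only regions 2, against 8.8% and 1.78% over all regions. Ebf1 had 2 and 3 regions in KO, against 23 and 27 in WT, Bcl11a 3 and 3, against 22 and 30, Tnfrsf13b 2 and 2, against 11 and 11, and Ciita 2 and 3, against 12 and 12. Of 16 myeloid and dendritic cell genes, 15 had a region. Of these, 9 had fewer in both KO libraries and none had more (background 17.7% and 4.28%). Their sums were 36 and 54 regions in KO, against 78 and 86 in WT, out of 111. Among these regions 31 (27.9%) were WT-only and 2 KO-only. Itgax, Csf1r, Adgre1 and Mpo had no KO peak, though Mpo had 1 region, with a peak in WT-2 alone. Csf1r had 1 and 2 regions in WT, and Lyz2 had no region. Named outside the rule, Batf3 had 3 and 5 regions in KO, against 3 and 5 in WT, and Itgam 5 and 6, against 4 and 7. Cd14 had 1 and 2, against 1 and 1, and Cebpa 3 and 3, against 3 and 5. Ly86 had 5 and 11 regions in KO, against 16 and 19 in WT, Flt3 2 and 5, against 10 and 10, Cebpb 9 and 12, against 16 and 16, and Adgre1 0 and 0, against 4 and 3. The labels give a CD4+ sort gate and no purity of the sorted cells. The part of B, myeloid or dendritic cells in the result at the 9 genes was not tested.

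The labelled cell type had its markers open in all libraries. The 18 T cell markers each had a region with a peak in KO and in WT libraries. Their sums were 142 and 191 regions in KO, against 147 and 149 in WT, out of 256. WT-only regions numbered 12 (4.69%) and KO-only regions 20, against 8.8% and 1.78% over all regions. Cd2 had 13 and 17 regions in KO, against 21 and 19 in WT, Bcl11b 19 and 28, against 12 and 19, Thy1 11 and 17, against 7 and 5, and Cd28 12 and 18, against 11 and 11. The NK cell list had 11 and 22 of its 35 regions in KO, against 24 and 23 in WT, with 4 and 7 at Eomes in KO, against 6 and 8 in WT. Melanocyte genes, which would mark the tumor, had 8 and 19 of 26 in KO, against 8 and 11 in WT, and Sox10 and Dct had no region.

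The genes most like the 9 were sought by the share of a gene's regions with a peak in each of the 4 libraries. Among 5577 other genes with at least 5 regions, the mean absolute difference from the pooled shares of the 9 genes was smallest for Adgrl2, at 2.17 percentage points. Gad1 (2.42), Plcg2 (2.54), Lyn (3.14) and Qrsl1 (3.59) came next. Adgrl2 had 2 and 5 of its 24 regions in KO, against 18 and 20 in WT libraries. Gad1 had 1 and 1 of 8 in KO, against 6 and 7 in WT, and Qrsl1 1 and 3 of 13, against 9 and 11.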

How the data were processed

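The tools named in the submitters' processing notes are deepTools, MACS2, Picard, SAMtools and BWA, and the build is GRCm38, also called mm10. The sources used here give no versions, settings, filters or read shifting. Each deposited file lists the peaks of 1 library. Its deposited fold enrichment (a ratio) sets a peak against background of the same library, as do the authors' −log10 p-value and −log10 q-value. They were used to describe, rank and filter peaks within a list. Read counts are not given, so no depth or counting interval could be set.

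Positions were made 1-based. Percentiles are ranks within a list, ties at mid-rank, and a region takes its strongest peak. Midpoints inside several genes went to the shortest interval. Differences are KO minus WT means, with exact two-sided permutation tests over libraries. Merging and assignment were tested on simulated data. The members and lists were chosen with earlier results of these data known, and the motifs after the promoters were seen. Named were all 9 genes, the region at each start or upper end, the strongest WT-only regions, regions with a peak in every library, up to 4 genes a list by the gap between WT-only and KO-only counts, and the 5 genes most like the members, except that 1 gene so chosen is not reported here. Alternatives were stricter peaks, shorter lists, other overlap and gene rules, a replicate block and leaving out each replicate. Promoter sequences are from RefSeq. No library or sample was left out. Python 3.11, pandas 2.3.3 and numpy 2.4.6 were used.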

Additional observations from a re-analysis of the deposited data

How the results depend on the processing

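The KO minus WT difference in member regions with a peak, -59, was below 0 in all 16 alternatives, from -93.5 (any region within 100 kb of a member) to -15 (the 20000 strongest peaks of each list), and from -64.5 to -54.5 with 1 library left out. WT-only regions numbered 46 to 61 with 1 library left out, 22 at a −log10 q of at least 10 and 12 among the 20000 strongest peaks. KO-only regions numbered 0 in the main count, 1 among the 20000 strongest peaks, 2 within 100 kb of a member whichever gene was nearest, and 0 to 2 with 1 library left out, the 2 being met without KO-1 and without KO-2. The gene count of 9 with fewer regions in both KO libraries ran from 7 to 9. The rank difference at regions with a peak in every library, -1.72, changed sign at a −log10 q of at least 10 (0.0372, 4 regions), among the 20000 strongest peaks (2.44, 3 regions) and inside the gene or within 1 kb (1.48, 2 regions), and ran from -6.78 to 0.128 with 1 library left out, above 0 without KO-1. Per gene, no difference turned above 0, but it was 0 at Btk at a −log10 q of at least 10, and at Btk and Cd22 among the 20000 strongest peaks. Same-numbered libraries did not deviate together (r = -0.00153 over 97394 regions). With the replicate block the difference was -59 and the smallest p such a test allows is 0.5 (exact sign-flip permutation p = 0.5). The tie rule and the filter for regions in at least 2 libraries were added after seeing the data. Without read counts, a region just under a list's threshold and one with no signal cannot be told apart.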
